A study of Mus musculus with 18 samples.

Results

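MHC class II presentation was examined through 8 genes measured by RNA-seq in mouse peritoneal macrophages. The genes were chosen by name, as the class II α and β chains H2-Aa, H2-Ab1 and H2-Eb1, the invariant chain Cd74, the class II transactivator Ciita, the peptide editor chains H2-DMa and H2-DMb1, and the editor's inhibitor chain H2-Oa. All 8 had values among the 13599 genes with a value, and 7 were among the 9708 genes tested. The exception was H2-Oa, which reached 1 FPKM in 1 library.

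The macrophages came from wild-type mice (TLR4-WT) and from mice that carry arginine in place of 1 lysine in the TIR domain of TLR4 (TLR4-K730R and TLR4-K810R). According to the methods, the mutants were made by CRISPR editing on the C57BL/6 background and the cells were drawn from the peritoneum after thioglycollate injection, so they are elicited rather than untouched resident cells. Cells of each genotype were left as control or received 100 ng/ml LPS, the endotoxin that TLR4 senses, for 6 h, giving 6 groups of 3 libraries. The labels give replicate numbers but do not say whether replicates are separate mice, so p-values measure the spread between these libraries, which may be technical.

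Class II molecules are αβ pairs that carry peptides from endosomes to the cell surface for CD4+ T cells. Cd74 fills their groove and guides them into endosomes, where proteases trim it to a short remnant that H2-DM (H2-DMa with H2-DMb1) exchanges for peptide, while H2-O holds H2-DM back in B cells. Ciita switches these genes on by docking on factors bound to the X and Y boxes of their promoters, and macrophages raise it in answer to interferon-gamma. H2-Ea, which encodes the α partner of H2-Eb1, is not transcribed in C57BL/6 mice, and it had no row in any library here.

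The X and Y boxes are what the class II genes share in sequence. The stretches before the start of H2-Aa and H2-Eb1 are shown from RefSeq (GRCm38.p6), from base -120 to base -1 of each start. Levels of this pair went together across groups more than within them, as given below. Capitals mark the Y box, ATTGG on either strand, and the X box core, AGNNACNGA on either strand.
H2-Aa (chr17:34287824-34287943, minus strand): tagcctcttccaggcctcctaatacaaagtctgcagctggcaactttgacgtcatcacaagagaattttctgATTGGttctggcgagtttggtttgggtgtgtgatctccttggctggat
H2-Eb1 (chr17:34305747-34305866, plus strand): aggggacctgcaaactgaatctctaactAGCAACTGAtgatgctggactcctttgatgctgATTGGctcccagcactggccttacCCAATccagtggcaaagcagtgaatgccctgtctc
H2-Eb1 held the X core at -92 to -84 and a Y box at -59 to -55 with 24 bases between them, plus a Y box on the opposite strand at -35 to -31. H2-DMb1 held the same order, with the X core at -95 to -87 and the Y box at -61 to -57 with 25 bases between them, counted from the RefSeq start. The H2-Aa stretch held a Y box at -48 to -44 and no match to these X core letters. The H2-Oa window had a Y box at -43 to -39, and its nearest upstream X core on the same strand, at -141 to -133, was farther away than the 8 to 30 bases searched. The search covered the whole RefSeq window, from 250 bases before to 50 after the start. Of 32851 such windows, 37.4% held the Y box, 17.7% the X core and 0.25% an X core followed by a Y box at that spacing. H2-DMa had RefSeq windows only at starts other than the one that carried most of its FPKM, and H2-Ab1, Ciita and Cd74 had none in the table used.

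The deposited values are FPKM, fragments scaled to transcript length and to the size of the library, for transcript events such as a first exon or a last exon. First-exon events were added up for each gene, last-exon events likewise, and whichever total was greater stands for the gene, which makes the value partial where an event is missing. The tables hold no row at 0 FPKM, and a gene with no row in a library was entered as 0 there. FPKM corrects for length, so levels can be set side by side between genes. Differences were tested with limma on log2(FPKM + 1) over all 9708 genes, and a gene counts as called where the Benjamini-Hochberg adjusted p is under 0.01, which the methods also used. Comparisons that involve the same group share its libraries.

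The libraries carried macrophage markers at high levels. Lyz2 lay between 5944 and 13291 FPKM, Csf1r between 277 and 538 and Adgre1 between 148 and 271. Markers of other cells that carry class II were present at lower levels. Of the B cell list Cd22 reached 21.7 FPKM and was above 0 in all 18 libraries, Cd79b reached 1.89, Cd79a 1.83 and Ms4a1 0.855, and of the dendritic cell list Clec10a reached 4.53 and Zbtb46 1.63. Pax5, Flt3, Xcr1 and Siglech had no row, which does not show that they were absent, since Itgam, a macrophage gene, had none either. Read counts are not part of the tables, which leaves the depth unknown.

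A pair of LPS libraries stood apart most from their groups. Over the 9708 genes, TLR4-WT LPS library 3 had a Pearson r of 0.970 with TLR4-K730R LPS libraries 1 and 2 but 0.966 and 0.962 with the other TLR4-WT LPS libraries. By mean r its nearest other group was TLR4-K810R with LPS, at 0.968 against 0.964 with its own group. TLR4-K730R LPS library 3 in turn had an r of 0.969 and 0.974 with TLR4-WT LPS libraries 1 and 2 but 0.966 and 0.963 with those of its own group. TLR4-WT LPS library 2 was near even, with a mean r of 0.9668 with its own group and 0.9669 with TLR4-K730R LPS. The gut gene Reg3b went with the labels, at 25.8 to 30.9 FPKM in all 3 TLR4-K730R LPS libraries and at 2.89 or less in the TLR4-WT LPS libraries. The labels were kept, and why these libraries stand apart was not tested. Without both of them, a choice made after seeing the data, the share of all genes called between TLR4-K730R and TLR4-WT with LPS went from 0.0% to 1.66%, and between TLR4-K810R and TLR4-WT with LPS from 0.144% to 5.96%. For Cd74, H2-Aa and H2-DMa, values without both are given beside the results. The other members neither gained nor lost a call without both.

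In TLR4-WT control macrophages, Cd74 was the most abundant of the 8 genes, followed by H2-Aa and H2-Ab1, then H2-Eb1, with H2-DMb1 and H2-DMa far lower and Ciita and H2-Oa near the floor. By mean, Cd74 stood at 547 ± 38.4 FPKM (SD, n = 3), H2-Aa at 209 ± 33.6, H2-Ab1 at 206 ± 56.5 and H2-Eb1 at 99.4 ± 6.93. H2-DMb1 stood at 31.4 ± 2.32 FPKM and H2-DMa at 14.6 ± 8.05. The summed level of the 8 genes ran from 974 to 1188 FPKM in TLR4-WT control, from 613 to 722 in TLR4-K810R control, from 1029 to 1195 in TLR4-WT with LPS and from 678 to 729 in TLR4-K810R with LPS. The plot of the 8 genes by library shows these levels.

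**Figure D1:**
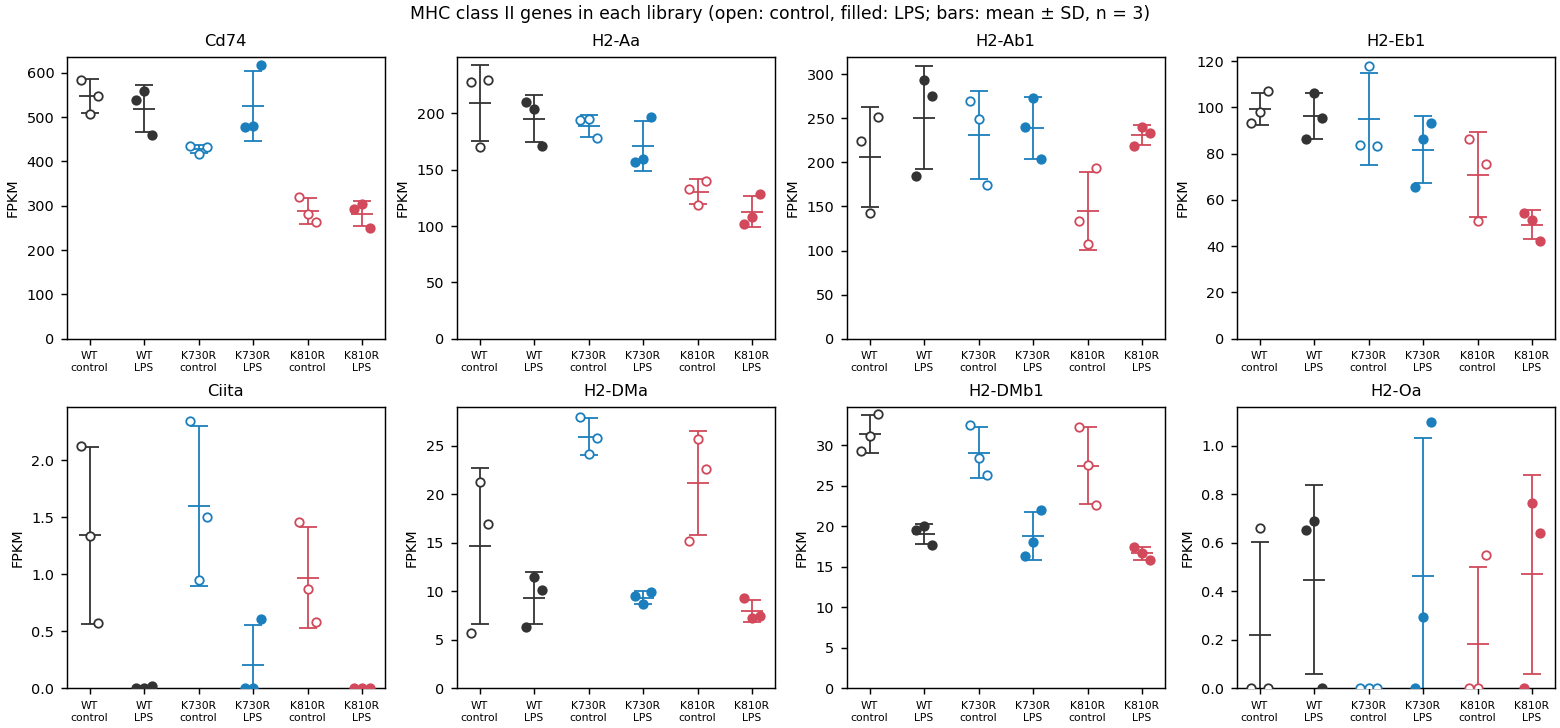
FPKM of each of the 8 class II genes (vertical axes, from 0) in the 6 groups, with 1 point per library, open for control and filled for LPS, and bars for the mean ± SD of 3 libraries. Cd74 and H2-Aa sit lowest in both TLR4-K810R groups, and Ciita, H2-DMa and H2-DMb1 sit lower after LPS.

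The clearest difference between genotypes was in Cd74 (chromosome 18), the invariant chain, whose mean in TLR4-K810R was 0.528 times that in TLR4-WT without LPS and 0.544 times with LPS. In control cells Cd74 was at 585, 508 and 548 FPKM in TLR4-WT, at 435, 417 and 433 in TLR4-K730R and at 321, 282 and 263 in TLR4-K810R. With LPS the level was 538, 559 and 459 FPKM in TLR4-WT, at 478, 480 and 617 in TLR4-K730R and at 292, 304 and 250 in TLR4-K810R. Every TLR4-K810R library lay below every library of the other genotypes. The difference between TLR4-K810R and TLR4-WT was -0.92 on the log2 scale without LPS (95% interval -1.19 to -0.66; limma adjusted p = 0.000553) and -0.88 with LPS (-1.14 to -0.61; adjusted p = 0.00443), and TLR4-K810R differed from TLR4-K730R with LPS by -0.89 (-1.15 to -0.62; adjusted p = 0.00462). TLR4-K730R control libraries lay below the TLR4-WT control libraries too, by -0.35, which did not pass (limma adjusted p = 0.458; 7.46% of all genes had libraries apart in this direction).

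Among the 7 tested members, Cd74 was the 1 called in each of these 3 comparisons, against 1.59% of all genes for TLR4-K810R against TLR4-WT without LPS, 0.144% with LPS and 0.0721% for TLR4-K810R against TLR4-K730R with LPS. Libraries lay apart in the lower direction for 6.65% and 7.9% of all genes in the comparisons with TLR4-WT without and with LPS, and for 6.05% and 4.45% in those with TLR4-K730R. Cd74, H2-Aa and H2-Eb1 did so in all of these but 1, H2-Eb1 against TLR4-K730R without LPS, and H2-DMb1 did so against TLR4-WT with LPS (-0.18, limma adjusted p = 0.457). The Cd74 call without LPS held with each library left out in turn and was lost with the groups of the comparison fitted alone (adjusted p = 0.0291). Both calls with LPS were lost in that fit too (adjusted p = 0.129 against TLR4-WT and 0.0752 against TLR4-K730R) and with the replicate block (0.0173 and 0.0164). Without TLR4-WT and TLR4-K730R LPS libraries 3 they held, at -0.96 and -0.77 (adjusted p = 0.000158 and 0.00583). With LPS, the call against TLR4-WT was lost without TLR4-WT LPS library 1 or 2 or any TLR4-K810R LPS library (adjusted p between 0.0107 and 0.0337), and the call against TLR4-K730R without TLR4-K730R LPS library 2 or 3 or any TLR4-K810R LPS library (0.0114 to 0.0273), while the log2 difference in these fits stayed between -0.95 and -0.77. Between TLR4-K730R and TLR4-WT none of the members was called, without LPS (0.268% of all genes) or with LPS (0.0% of all genes). Without both libraries 3, Cd74 was at -0.19 and H2-Aa at -0.39 there with LPS (limma adjusted p = 0.433 and 0.185). Nor was any member called between TLR4-K810R and TLR4-K730R without LPS (0.0824% of all genes). The unadjusted limma p was below 0.05 for 2, 0 and 4 members in these comparisons, in that order. Of the 9708 genes tested, 748, 746 and 1014 were below it.

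**Figure D2:**
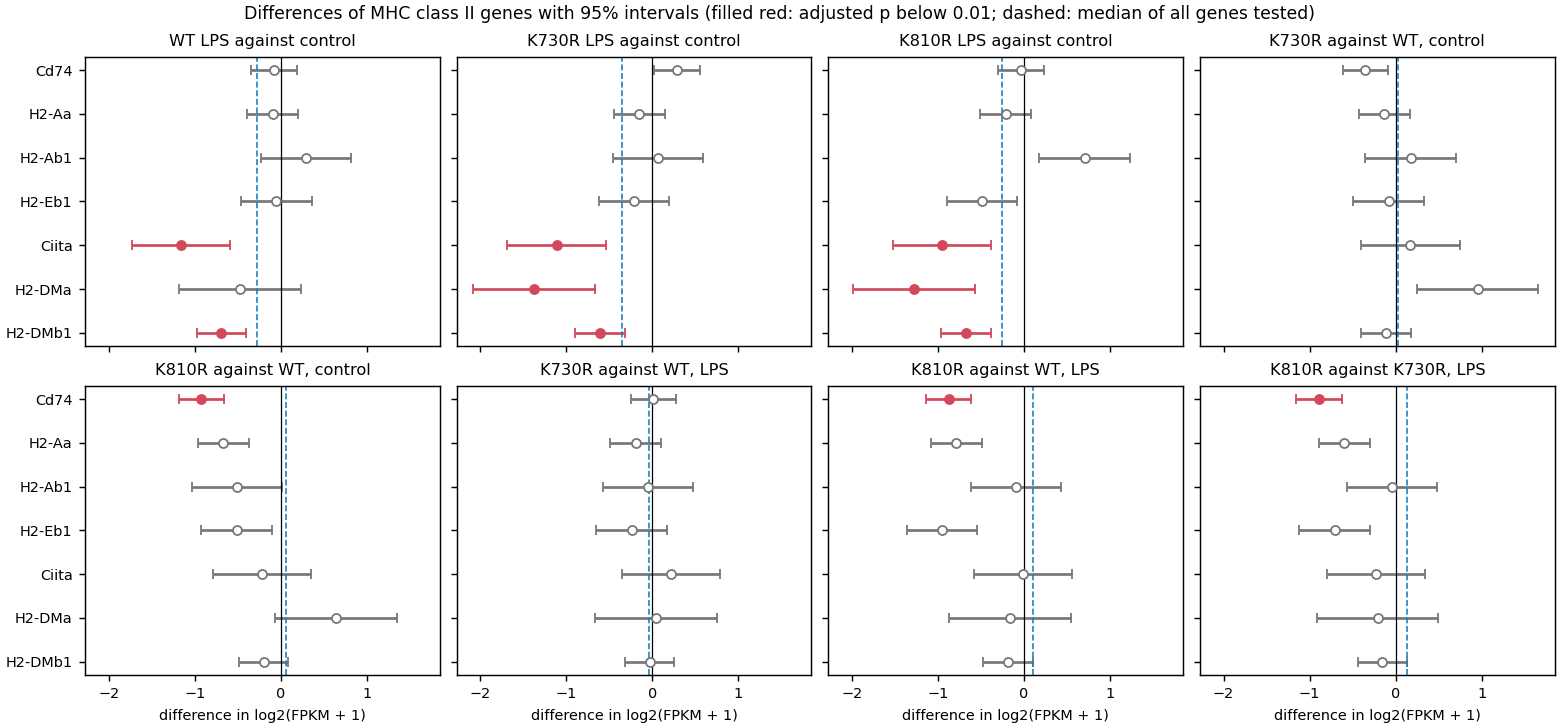
Difference in log2(FPKM + 1) of the 7 tested class II genes (horizontal axes) with 95% intervals in 8 comparisons, filled in red where the limma adjusted p is below 0.01, with a dashed line at the median of all 9708 genes. Cd74 is filled in the 3 comparisons of TLR4-K810R with another genotype shown here, and H2-DMb1 is filled in the LPS comparison of each genotype. Ciita is filled there too, through rows that are mostly missing with LPS and were entered as 0.

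H2-Aa (chr17:34282744-34287823, minus strand), the α chain that pairs with H2-Ab1, was by mean lowest in both TLR4-K810R groups, as Cd74 was. In control cells it was at 228, 170 and 229 FPKM in TLR4-WT, at 194, 195 and 178 in TLR4-K730R and at 133, 118 and 140 in TLR4-K810R. With LPS the level was 210, 204 and 171 FPKM in TLR4-WT, at 157, 159 and 197 in TLR4-K730R and at 102, 108 and 128 in TLR4-K810R. The TLR4-K810R libraries again lay below all others, but the tests against TLR4-WT missed the threshold without LPS (log2 difference -0.67, adjusted p = 0.0123) and with LPS (-0.79, adjusted p = 0.0163). The former became a call without TLR4-WT control library 2 (-0.81, adjusted p = 0.00712) and the latter without TLR4-WT LPS library 3 (-0.88, adjusted p = 0.00444). Leaving out TLR4-K730R LPS library 3, which is in neither comparison, also brought both under the threshold (adjusted p = 0.00976 and 0.00786), as did TLR4-WT LPS library 3 for the former (0.00969) and TLR4-WT control library 2 for the latter (0.00894). Without both LPS libraries 3 the differences were -0.67 and -0.88 (adjusted p = 0.00638 and 0.00122).

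H2-Eb1 (chr17:34305867-34316674, plus strand), the second β chain, was lowest in TLR4-K810R with LPS. In control cells it was at 93.2, 98.1 and 107 FPKM in TLR4-WT, at 83.7, 118 and 83.3 in TLR4-K730R and at 86.3, 50.8 and 75.6 in TLR4-K810R. With LPS the level was 86.4, 106 and 95.6 FPKM in TLR4-WT, at 65.5, 86.5 and 93.2 in TLR4-K730R and at 54.3, 51.4 and 42.2 in TLR4-K810R. With LPS the TLR4-K810R libraries lay below those of both other genotypes, and the difference from TLR4-WT was -0.95 (95% interval -1.36 to -0.54; limma adjusted p = 0.0248), short of a call. Without LPS the TLR4-K810R libraries lay below the TLR4-WT libraries too (-0.51, adjusted p = 0.209) and overlapped those of TLR4-K730R. Within TLR4-K810R the LPS difference was -0.49 (adjusted p = 0.0540), which became a call without TLR4-K810R control library 2 (-0.71, adjusted p = 0.00639).

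H2-Ab1 (chr17:34257689-34269419, plus strand), the β partner of H2-Aa, was by mean lowest in TLR4-K810R control cells, at 0.703 times TLR4-WT control and 0.628 times TLR4-K730R control, and neither difference passed (-0.51 and -0.68; limma adjusted p = 0.381 and 0.300). In control cells it was at 224, 143 and 252 FPKM in TLR4-WT, at 269, 249 and 174 in TLR4-K730R and at 133, 108 and 194 in TLR4-K810R. With LPS the level was 184, 293 and 275 FPKM in TLR4-WT, at 241, 273 and 203 in TLR4-K730R and at 218, 240 and 234 in TLR4-K810R. Neighbouring groups in its order of levels all overlapped. The LPS difference within TLR4-K810R was 0.71 (95% interval 0.18 to 1.24; adjusted p = 0.0321), with every LPS library above every control library, as for 14.6% of all genes. It missed the threshold, and it passed without TLR4-K810R control library 3 (0.94, adjusted p = 0.00948) and with libraries rescaled by the median of gene ratios (0.98, adjusted p = 0.00411). Over the 18 libraries, log2 levels of H2-Aa had a Pearson r of 0.86 with Cd74 and 0.82 with H2-Eb1 but 0.33 with H2-Ab1, which describes libraries that share group and scaling. After group means were subtracted, its r was 0.40 with Cd74, 0.23 with H2-Eb1 and 0.36 with H2-Ab1.

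H2-DMa and H2-DMb1, the chains of the peptide editor, were called between control and LPS and not between genotypes, H2-DMa in the mutants alone. Ciita, the regulator, had such calls too, with the limits given here. Its comparisons between genotypes with LPS set mostly missing rows, entered as 0, against each other. Ciita (chr16:10480059-10528418, plus strand) was at 2.12, 1.33 and 0.573 FPKM in TLR4-WT control, at 2.34, 0.952 and 1.503 in TLR4-K730R control and at 1.46, 0.871 and 0.584 in TLR4-K810R control. With LPS it had no row in 7 of the 9 libraries, which were entered as 0, and was at 0.023 FPKM in TLR4-WT library 3 and at 0.61 in TLR4-K730R library 3. A missing row can be an event that was not estimated, and Ciita passed the filter on low values through its control libraries alone, so its calls (limma adjusted p = 0.00228, 0.00293 and 0.00992 in TLR4-WT, TLR4-K730R and TLR4-K810R) had little room to come out otherwise. Fitted differences were -1.16, -1.11 and -0.95 and depend on the pseudocount: with 0.1 they reached -3.59, -3.06 and -3.34.

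H2-DMb1 (chr17:34153072-34160230, plus strand), the β chain of the editor, fell after LPS in each genotype, to 0.607, 0.645 and 0.606 times its control mean in TLR4-WT, TLR4-K730R and TLR4-K810R. It went from 29.3, 31.2 and 33.9 FPKM to 19.5, 20.1 and 17.7 in TLR4-WT, from 32.5, 28.5 and 26.3 to 16.3, 18.03 and 22.1 in TLR4-K730R, and from 32.2, 27.6 and 22.7 to 17.5, 16.7 and 15.9 in TLR4-K810R. In each genotype all LPS libraries lay below all control libraries, which 39.5%, 45.0% and 37.9% of all genes did. The log2 differences were -0.69, -0.61 and -0.68 (limma adjusted p = 0.000589, 0.00151 and 0.000815). All genes tested had medians of -0.28, -0.36 and -0.26 in these comparisons, and with libraries rescaled by the median of gene ratios, which removes that shift, H2-DMb1 kept its direction at -0.37, -0.22 and -0.41 without passing (adjusted p = 0.0740, 0.305 and 0.0569).

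H2-DMa (chr17:34119541-34139101, plus strand), the α chain, fell after LPS in both mutants. It went from 27.9, 24.1 and 25.8 FPKM to 9.47, 8.65 and 9.95 in TLR4-K730R (log2 difference -1.38, adjusted p = 0.00289) and from 15.2, 25.7 and 22.6 to 9.26, 7.21 and 7.50 in TLR4-K810R (-1.28, adjusted p = 0.00589). In TLR4-WT it was at 5.70, 21.3 and 16.9 FPKM without and 6.28, 11.5 and 10.1 with LPS, a difference of -0.47 that did not pass (adjusted p = 0.261). Without LPS, H2-DMa in TLR4-K730R was 1.77 times TLR4-WT, and the difference of 0.95 did not pass (limma adjusted p = 0.455). The 5.70 FPKM of TLR4-WT control library 1 is a partial value, since an inner exon of the gene (chr17:34137114-34137398) was at 16.6 FPKM there and at 16.9 and 19.9 in the other TLR4-WT control libraries. Taking the highest single event per gene, a choice made after seeing the data, gave -0.97 in TLR4-WT (adjusted p = 0.000394), and leaving out that library gave -0.997 (adjusted p = 0.00280). With median-of-ratios scaling the calls in the mutants were lost too (-0.995, adjusted p = 0.0249, and -1.02, adjusted p = 0.0254). The differences between the LPS responses of the mutants and of TLR4-WT were -0.91 and -0.81 and were not called (adjusted p = 0.749 and 0.493).

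The Cd74 difference with LPS in TLR4-K730R was 0.28, which was no call (limma adjusted p = 0.0712) but became one with median-of-ratios scaling (0.69, adjusted p = 0.00181). The members called after LPS in the scaling as deposited, all lower, were H2-DMb1 in each genotype, H2-DMa in both mutants and Ciita in each genotype, whose calls rest on its control libraries as said above and are not read against other genes. Of all genes, 34.3% were called and 23.9% called lower in TLR4-WT. These shares were 35.8% and 26.5% for TLR4-K730R, against 28.8% and 19.7% for TLR4-K810R. Most of these calls turned on single libraries; those of H2-DMb1 in TLR4-WT and TLR4-K810R did not. Without TLR4-K730R control library 1 no member was called in TLR4-K730R (adjusted p = 0.0195 for Ciita, 0.0119 for H2-DMa and 0.0104 for H2-DMb1). H2-DMa also lost its TLR4-K730R call without LPS library 2 (0.0111), H2-DMb1 without LPS library 1 (0.01004) and Ciita without LPS library 1 or 2 (0.0156 and 0.0151). In TLR4-K810R, H2-DMa lost its call without control library 2 or 3 or any LPS library (0.0106 to 0.0284), and Ciita without control library 1 or 2, any TLR4-K810R or TLR4-WT LPS library, TLR4-WT control library 2, TLR4-K730R control library 3 or TLR4-K730R LPS library 1 or 2 (0.0115 to 0.0502). In TLR4-WT, Ciita lost its call without control library 1 (0.0161), where H2-DMa gained one. Without both LPS libraries 3, H2-DMa lost its calls in TLR4-K730R (-1.42, 0.0107) and TLR4-K810R (-1.28, 0.0106). Without LPS-treated TLR4-K810R libraries 2 and 3, which carry lung genes, the group is 1 library whose spread is assumed to be that of the other groups, and the TLR4-K810R differences were -0.95 for Ciita, -1.08 for H2-DMa and -0.61 for H2-DMb1, with no call (adjusted p = 0.103, 0.132 and 0.0394). By limma, 0 members were called in the tests of whether the LPS response differed from that of TLR4-WT. There TLR4-K730R had 0.0412% of all genes called and TLR4-K810R 0.124%. The unadjusted limma p was below 0.05 for 0 members in either test, beside 681 and 1277 of the 9708 genes tested.

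H2-Oa (chr17:34092340-34095234, plus strand), a chain of the H2-DM inhibitor that is known from B cells, had a row in 9 libraries and reached 1.10 FPKM at most. It had no row in TLR4-K730R control cells, and its groups otherwise overlapped with missing rows entered as 0. H2-Ob, its partner chain, reached 0.806 FPKM at most and was not tested either.

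Events within the genes gave detail that the gene values hide. Cd74 is made in a short form and in a long form that carries an extra exon, here of 192 bases, which encodes a protease-inhibiting domain. Transcripts without this exon were at 473, 448 and 524 FPKM in TLR4-WT control and at 242, 226 and 161 in TLR4-K810R control, and at 469, 477 and 407 against 231, 255 and 227 with LPS. Transcripts with the exon overlapped between these genotypes, at 106, 54.7 and 17.0 FPKM against 74.4, 51.5 and 99.4 in control cells. Of Cd74 transcripts, the share with the exon was 10.8% ± 7.55 (SD, n = 3) in TLR4-WT control and 26.8% ± 10.3 in TLR4-K810R control, whose libraries did not overlap, and 12.02% ± 1.84 and 14.2% ± 6.09 with LPS. In TLR4-K730R it was 11.5% ± 8.22 without and 20.3% ± 3.56 with LPS, and with LPS its libraries lay above those of TLR4-WT. Over 9 comparisons the smallest p of the exact permutation test was 0.1, two-sided, the least that 3 against 3 libraries allow (adjusted p = 0.3), so no difference in the share can be called.

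**Figure D3:**
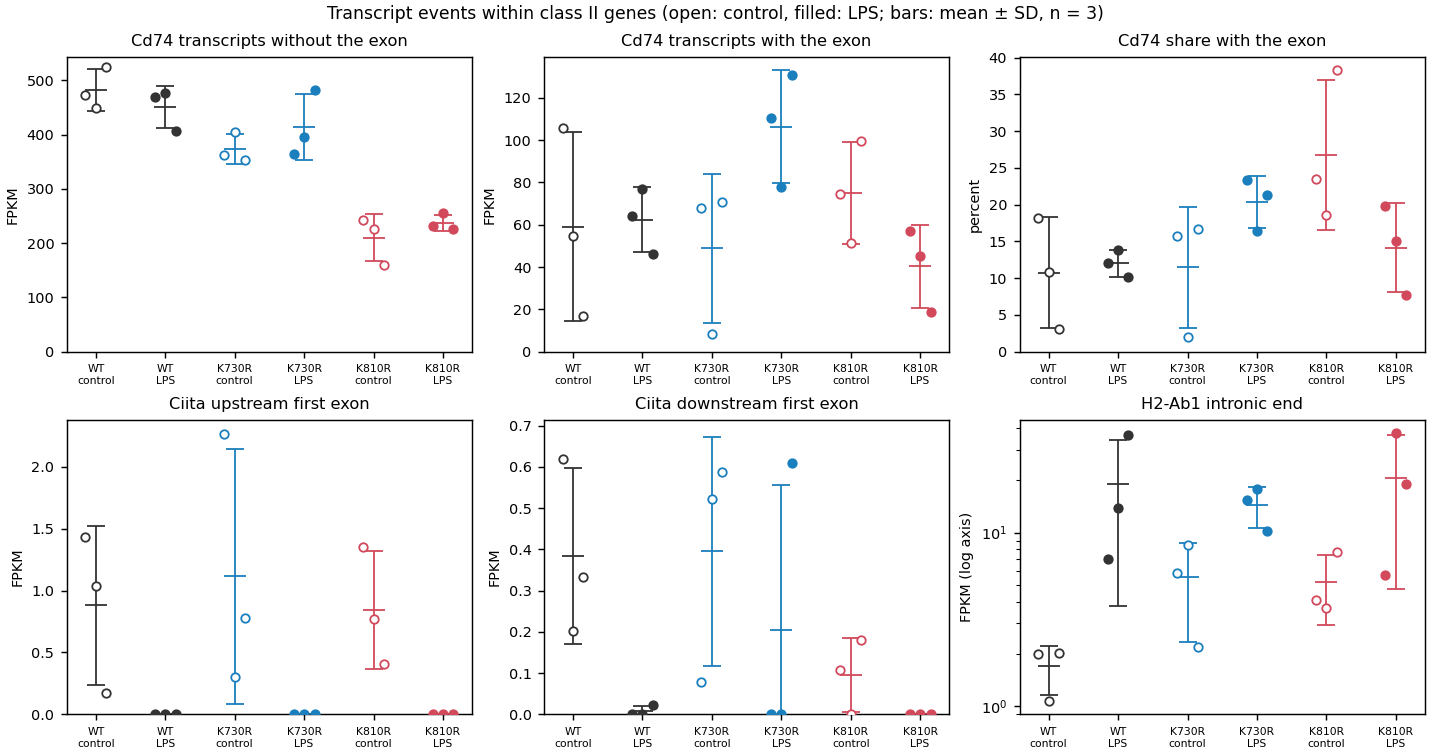
Transcript events within Cd74, Ciita and H2-Ab1 in the 6 groups, in FPKM or, at top right, in percent of Cd74 transcripts, with 1 point per library (open control, filled LPS) and bars for the mean ± SD of 3 libraries; the H2-Ab1 axis is logarithmic. The Cd74 form without the exon is lower in both TLR4-K810R groups, and the upstream Ciita first exon has no row in any LPS library, drawn at 0.

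Ciita has several first exons, each with a promoter of its own. The most upstream one (chr16:10480059-10480426), known from dendritic cells and macrophages, was by mean the highest in control cells, with 0.880, 1.11 and 0.841 FPKM in TLR4-WT, TLR4-K730R and TLR4-K810R, though below the most downstream one in TLR4-WT control library 3 (0.172 against 0.333) and TLR4-K730R control library 2 (0.299 against 0.522). It had no row in any of the 9 LPS libraries. The most downstream one (chr16:10489746-10489864), known for its answer to interferon-gamma, had a row in 8 control libraries, at 0.619 FPKM at most. It was the only first exon of Ciita with a row in LPS libraries, at 0.610 FPKM in TLR4-K730R library 3 and 0.023 in TLR4-WT library 3. The middle one (chr16:10488178-10488424), known from B cells, stayed at or below 0.141 FPKM.

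H2-Ab1 transcripts also ended early, in an event that starts with the second exon and runs 354 bases into the intron behind it (chr17:34264761-34265387). This end was at 2.0, 1.07 and 2.01 FPKM in TLR4-WT control and at 7.05, 13.9 and 36.3 with LPS, at 5.84, 8.52 and 2.20 and then 15.3, 17.9 and 10.3 in TLR4-K730R, and at 4.10, 3.69 and 7.77 and then 5.66, 37.4 and 19.0 in TLR4-K810R. LPS and control libraries did not overlap in TLR4-WT and TLR4-K730R and did in TLR4-K810R. As a share of the gene's FPKM it was 0.815% ± 0.0729 (SD, n = 3) and 7.26% ± 5.17 in TLR4-WT without and with LPS, 2.29% ± 1.09 and 5.99% ± 0.819 for TLR4-K730R, and 3.50% ± 0.478 and 8.76% ± 6.51 for TLR4-K810R. The event was chosen after its values were seen, so its values are given as a description, with no test.

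Genes around the class II pathway were counted in 5 lists, each to be read beside the share of all genes called after LPS, which was 34.3% for TLR4-WT, 35.8% with the TLR4-K730R and 28.8% with the TLR4-K810R receptor. Of 9 genes that process the invariant chain and antigen in endosomes, 4 were called lower and 1 higher after LPS in TLR4-WT and in TLR4-K810R, and 5 lower and 1 higher in TLR4-K730R, with list medians of -0.57, -0.63 and -0.68 beside -0.28, -0.26 and -0.36 for all genes. Legumain (Lgmn), which makes early cuts in Cd74 and antigens, fell from a mean of 1097 to 394 FPKM in TLR4-WT (log2 difference -1.47). Ifi30, which reduces disulfide bonds of antigens, fell from 550 to 175 FPKM (-1.65), and the proteases Ctsd and Ctsb fell by 1.47 and 0.61 on the log2 scale. Sppl2a, the membrane protease that clears the last piece of Cd74, rose from 26.4 to 79.8 FPKM (1.57). These 5 were called in each genotype, and Ctsh, an aminopeptidase, in TLR4-K730R (from 248 to 113 FPKM, -1.23), a call lost with median-of-ratios scaling (-0.82, adjusted p = 0.0247). In that scaling all 5 kept their direction, and Ctsb was not called in any genotype (-0.28, adjusted p = 0.0574, in TLR4-WT). Cathepsin S (Ctss), the main protease of the last steps of Cd74 trimming, was at 4524 FPKM without and 3569 with LPS in TLR4-WT and was not called (adjusted p = 0.0303).

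In the interferon-gamma route to Ciita, 2 of the 5 genes reported were called higher and 1 lower in TLR4-WT and in TLR4-K810R, and 2 higher and 2 lower in TLR4-K730R. Jak2, the receptor's kinase, rose from 6.44 to 55.0 FPKM in TLR4-WT (2.94), and Irf1, a factor that acts on the downstream Ciita promoter, rose from 24.6 to 122 (2.32). The receptor chain Ifngr1 fell from 56.1 to 18.3 FPKM (-1.53). Each of these 3 was called in each genotype. Jak1 was also called lower in TLR4-K730R (-0.34), a direction that turned with median-of-ratios scaling (0.06, adjusted p = 0.624).

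Of 7 factors that sit on class II promoters (the RFX and NF-Y subunits and Creb1), 0 were called by limma in any LPS comparison. In each genotype 1 of them had an unadjusted limma p below 0.05. Of the 9708 genes tested, 5255, 5379 and 4705 did so in TLR4-WT, TLR4-K730R and TLR4-K810R. Rfx5 had the largest positive difference among them, 0.61 in TLR4-WT, at 1.12 FPKM without and 2.35 with LPS (adjusted p = 0.110). March1, the ubiquitin ligase that removes class II from the surface, rose from 14.2 ± 1.83 to 67.9 ± 7.05 FPKM (SD, n = 3) in TLR4-WT (2.18), from 15.6 to 60.8 in TLR4-K730R (1.89) and from 14.2 to 50.3 in TLR4-K810R (1.76), and was called in each. March8 and Cd83, the other genes of class II turnover listed, were not, but with median-of-ratios scaling Cd83 was called higher in TLR4-WT (0.90, adjusted p = 0.00166). In that scaling Cd83 was at 0.45 in TLR4-K730R and -0.28 in TLR4-K810R, with no call (limma adjusted p = 0.0832 and 0.297). Of 5 genes listed here as silencers or inhibitors of Ciita, Ezh2 and Socs1 had no row and Prdm1 was not called. Whether they act on Ciita in these cells was not tested, and for Zbtb7b such a role is not taken as given. Zbtb7b was not called either (0.46, 0.35 and 0.46 in the order TLR4-WT, K730R and K810R), but was called higher in all of them with median-of-ratios scaling (0.78, 0.75 and 0.73; adjusted p = 0.00113, 0.00157 and 0.00244). Il10, a cytokine that lowers class II, had no row in any TLR4-WT or TLR4-K730R control library, entered as 0, and was called higher with LPS there, at 2.80 to 8.24 and 2.58 to 6.28 FPKM. It passed the filter on low values through its LPS libraries alone, so these calls had little room to come out otherwise. In TLR4-K810R Il10 was at 0.969 to 1.93 FPKM with LPS and was not called (adjusted p = 0.0156), and the test of its response against that of TLR4-WT was not called either (adjusted p = 0.140).

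**Figure D4:**
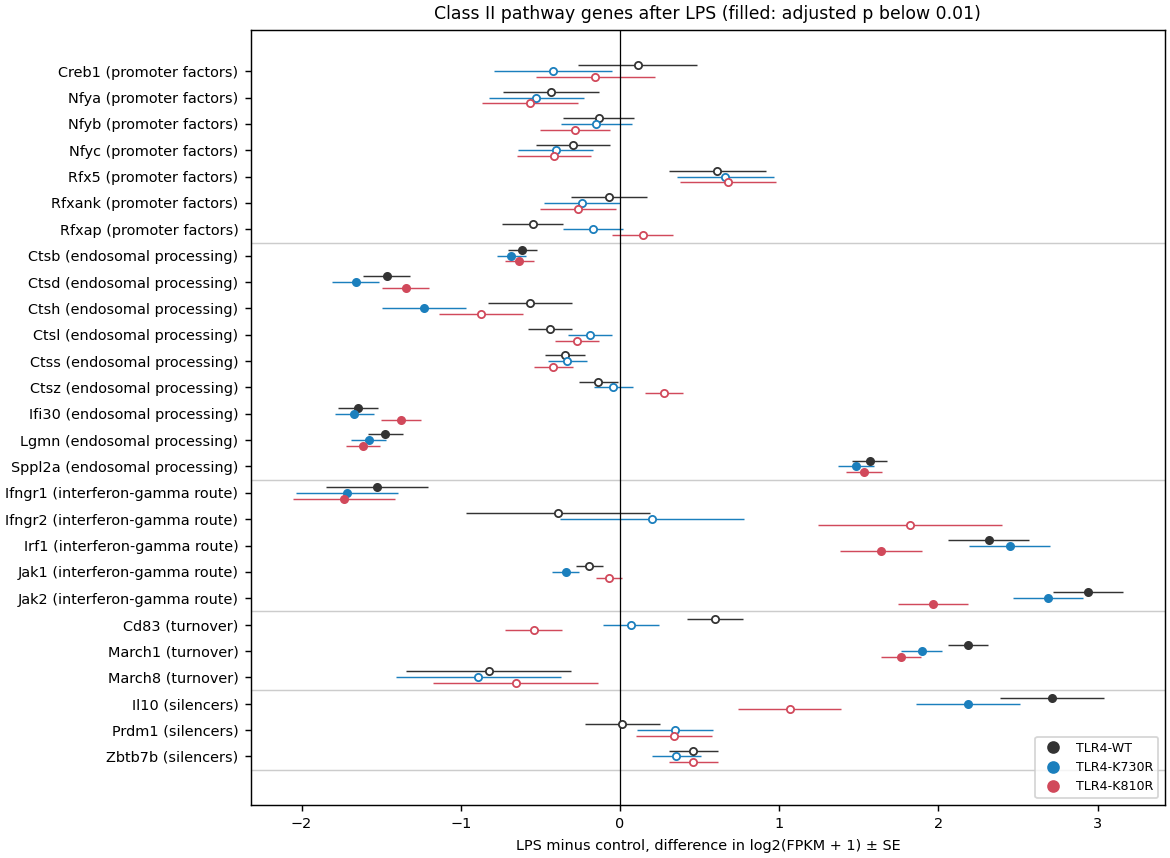
LPS minus control difference in log2(FPKM + 1) ± SE (horizontal axis) of 27 tested genes around class II presentation, coloured by genotype and filled where the limma adjusted p is below 0.01. Lgmn, Ifi30, Ctsd, Ctsb and Ifngr1 lie to the left and Sppl2a, Jak2, Irf1 and March1 to the right in each genotype.

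Other genes moved together with these results, and their part in them was not tested. The methods do not say whether cells were selected from the harvest before RNA was taken. In these libraries fewer cells of a type and less RNA per cell cannot be told apart. Beside the fall of H2-DMb1 after LPS, the summed level of the 9 B cell markers went from 20.0 to 24.4 FPKM in TLR4-WT control libraries to 4.48 to 8.42 with LPS, which is mostly Cd22, also called lower in each genotype, though not in TLR4-K730R with median-of-ratios scaling (-0.90, adjusted p = 0.0466). The 9 dendritic cell markers went from 2.30 to 4.12 to 0.677 to 0.913, mostly Clec10a, with Flt3, Xcr1, Itgae, Siglech and Snx22 without a row. The TLR4-K730R control libraries had B cell sums of 7.44 to 21.8 FPKM, and there Cd22 ran from 4.47 to 20.1, overlapping its 4.07 to 4.74 with LPS. In TLR4-K730R and TLR4-K810R the B cell sums with LPS were at 6.71 FPKM or less and the dendritic cell sums at 1.12 or less.

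The summed level of the macrophage markers was lower after LPS as well. It went from 13470 to 14785 FPKM in TLR4-WT control libraries to 7289 to 9465 with LPS. TLR4-K730R went from 13624 to 14743 without to 7598 to 9792 with LPS, as TLR4-K810R did from 11633 to 13949 to 9098 to 10057. In TLR4-WT, Lyz2 (-0.84), Cd68 (-0.76), Csf1r (-0.55) and Mertk (-0.96) were called lower, beside -0.69 for H2-DMb1, and Fcgr1, an IgG receptor, was called higher (2.60). With median-of-ratios scaling Lyz2 (-0.51) and Fcgr1 (2.93) were still called in TLR4-WT, while Cd68 (-0.43, adjusted p = 0.0194), Csf1r (-0.22, adjusted p = 0.176) and Mertk (-0.65, adjusted p = 0.0676) were not. Mertk was called lower and Fcgr1 higher in both mutants too, whereas in TLR4-K810R Lyz2, Cd68 and Csf1r were not called and Adgre1 was called higher (0.53). Of the neutrophil list S100a8 rose, from a mean of 29.0 to 207 FPKM in TLR4-WT, with means of 37.8 and 210 for TLR4-K730R and 39.5 and 182 for the TLR4-K810R libraries. S100a9, above 0 in 11 libraries, stayed at 2.23 FPKM or less. Retnlg, also tested, was above 0 in 7 libraries and stayed at 2.67 FPKM or less, so S100a8 does not stand for the list.

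Beside the lower Cd74 of TLR4-K810R, the B cell sum was at 18.8 to 20.6 FPKM and the dendritic cell sum at 3.21 to 5.96 in control cells, overlapping TLR4-WT. The macrophage markers, 6 of 7 with a row, summed to 11633 to 13949 FPKM in TLR4-K810R control cells and 13470 to 14785 in TLR4-WT control cells. None of the 6 was called by limma between these genotypes without LPS. There 2 had an unadjusted limma p below 0.05, as did 1367 of the 9708 genes tested. Csf1r and Adgre1 lay lower in every TLR4-K810R control library than in any TLR4-WT control library (-0.38 and -0.37, limma adjusted p = 0.173 and 0.180). Some genes listed as markers of macrophage subsets were called. Retnla, which marks monocyte-derived peritoneal macrophages, was at 28.7 to 33.8 FPKM in TLR4-WT control and at 1.28 to 3.42 in TLR4-K810R control (log2 difference -3.23, adjusted p = 4.16e-05), and at 13.4 to 29.5 against 2.87 to 3.18 with LPS (-2.51, adjusted p = 0.00297). Ly6c2, a monocyte gene, was lower in TLR4-K810R control cells (-1.86, adjusted p = 0.000388), and the other tested genes of that list were not called there (Ccr2 0.70, Fcrls -0.53). Gata6, the factor of resident peritoneal macrophages, was higher, at 4.23 to 10.9 FPKM against 1.13 to 1.47 (1.64, limma adjusted p = 0.00377). Which cells supplied Gata6 was not tested, and the TLR4-K810R control libraries also held more of the gut and lung genes given below. The other tested markers of resident peritoneal macrophages had differences of the opposite sign that were not called, -0.84 for Timd4, -0.45 for Icam2 and -0.43 for Alox15 (adjusted p = 0.205, 0.445 and 0.572).

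The 5 gut and lung genes listed after seeing the data summed to 1.503 to 4.06 FPKM in TLR4-WT control, 31.9 to 53.4 in TLR4-K730R control and 38.5 to 90.2 in TLR4-K810R control libraries, and with LPS to 1.56 to 9.40, 35.7 to 38.4 and 14.7 to 33.3. The lung gene Scgb1a1 was at 21.96 and 30.9 FPKM in LPS-treated TLR4-K810R libraries 2 and 3 and at 3.94 or less elsewhere. Without these libraries the Cd74 differences with LPS were -0.82 against TLR4-WT and -0.83 against TLR4-K730R, with 1 library left in the group and no call (adjusted p = 0.0695 and 0.0639).

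Among 8858 genes with a mean of at least 1 FPKM, those whose log2 levels over the 18 libraries were most like the mean of the 7 tested members were Cd5l (Pearson r = 0.92), a protein secreted by tissue macrophages, and Il10ra (0.90), the receptor chain for IL-10. They were followed by Capn5 (0.84), St3gal5 (0.82), the complement chain C1qa (0.82), C4b (0.81), Gm47507 (0.80), Trf (0.80), Retnla (0.80) and Prokr1 (0.79). Cd5l was at 162, 167 and 199 FPKM in TLR4-WT control, at 135, 126 and 126 in TLR4-K730R control and at 82.0, 70.4 and 78.1 in TLR4-K810R control, and with LPS at 75.2, 82.3 and 57.9, at 51.6, 54.8 and 81.2, and at 33.4, 35.2 and 33.6. It was lower after LPS in each genotype and lowest in TLR4-K810R under either treatment. These values of r describe libraries that fall into 6 groups and share their scaling.

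**Figure D5:**
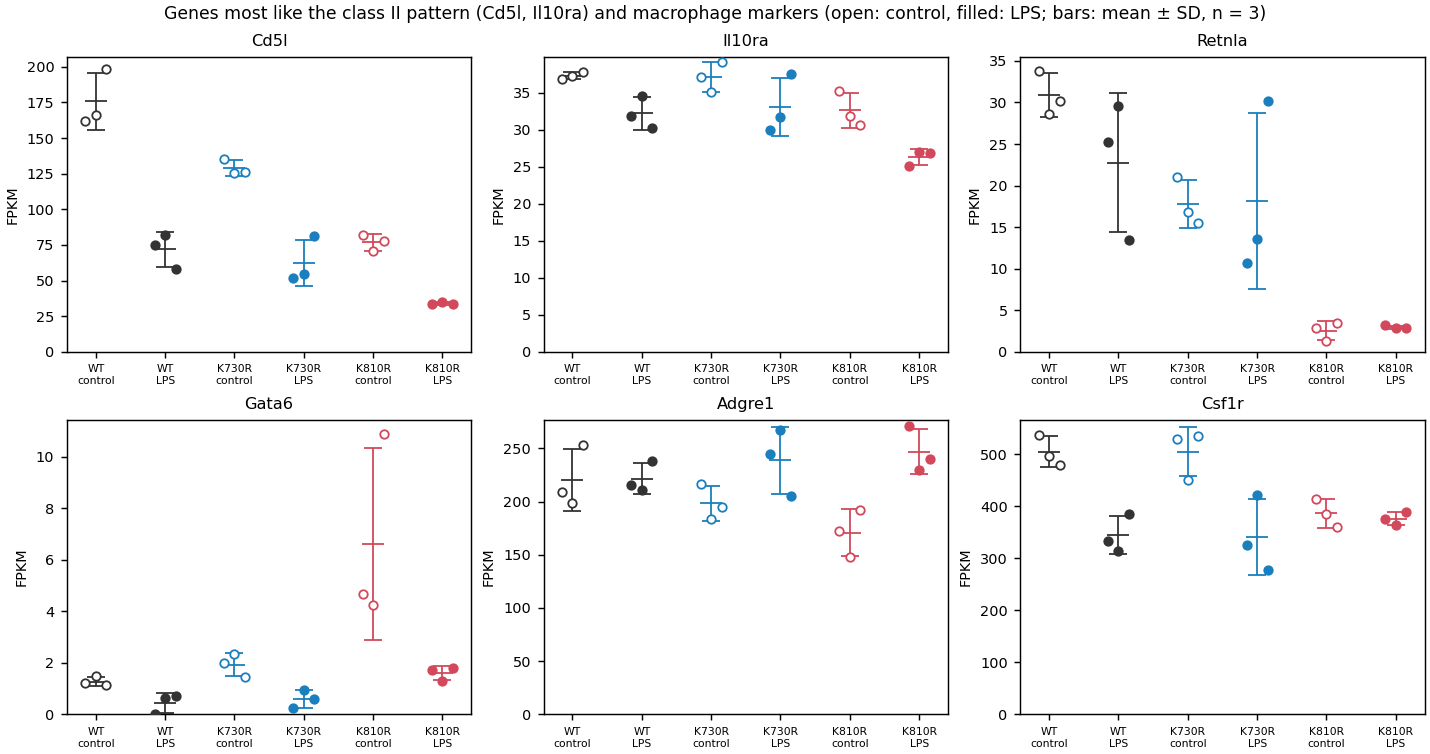
FPKM (vertical axes, from 0) in the 6 groups of the 2 genes most like the class II pattern, Cd5l and Il10ra, and of the markers Retnla, Gata6, Adgre1 and Csf1r, with 1 point per library (open control, filled LPS) and bars for the mean ± SD of 3 libraries. Retnla is low in both TLR4-K810R groups, Gata6 is highest in TLR4-K810R control cells, and Adgre1 and Csf1r are lower in TLR4-K810R control than in TLR4-WT control libraries but not after LPS.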

How the data were processed

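RNA-seq libraries of mouse peritoneal macrophages (18, in 6 groups of 3) were grouped by the genotype and treatment in their labels. The authors deposited 1 table per library with FPKM values of 20 kinds of transcript events; the aligner, the program and its settings are not given in the sources used here. The submitters' processing notes name hg18, a human build, but the coordinates and Ensembl numbers are those of mouse GRCm38, and GENCODE M21 was used. FPKM are relative to the fragments of each library, so a gene that gains takes share from others. Depth is unknown, so no counting error could be given.

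An event was kept where it overlapped the gene it names, on the same strand (6.24% of first-exon and last-exon FPKM did not), and the gene value is the larger of both sums. No row carries the number of Cd74: its events carry that of the microRNA Mir5107 inside it, and were taken by position (54 rows). The design assumed FPKM per gene and was otherwise kept.

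Genes at 1 FPKM or more in at least 3 libraries (9708) entered limma 3.58.1 under R 4.3.3 on log2(FPKM + 1) (pseudocount 1, intensity trend, 1 fit of all groups) in 11 comparisons, with Benjamini-Hochberg adjustment in each; log2 differences understate the change of low genes. The script was tested on simulated data. The members, lists and tests were chosen with earlier results of these data known. Some list genes are not reported here and were left out of the lists' counts and sums. Named are all members, pathway list genes called after LPS (at most 6 per list) and the 10 genes most like the members; other names were chosen after their values were seen. Alternatives covered the pseudocount (0.1), filters, scaling, trend, weights, replicate block, groups in the fit, threshold (0.05), the value per gene and each library left out. Tables were made with Python 3.11.15, pandas 2.3.3 and scipy 1.17.1, and promoters were read from RefSeq.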

Additional observations from a re-analysis of the deposited data

How the results depend on the processing

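No member value changed direction where either fit called it: over 33 alternatives, 66 calls of single members were lost and 18 gained among 2420 values, and 81 of the 2061 values called in neither fit changed sign. Of the lost calls, 3, 5 and 19 were those of Ciita with LPS in TLR4-WT, TLR4-K730R and TLR4-K810R. The number of members called, with Ciita and its limits counted in, moved as follows. In TLR4-WT with LPS, 2 became 1 with the stricter filter (mean of 2 FPKM), with median-of-ratios scaling and with the groups of the comparison fitted alone. In TLR4-K730R with LPS, 3 became 1 with the groups alone and with last-exon sums alone. In TLR4-K810R with LPS, 3 became 4 at the threshold of 0.05 (H2-Ab1, higher), 1 with no filter, with the groups alone and with last-exon sums alone, and 0 without the 2 libraries with lung genes, which leaves 1 library in the group. With median-of-ratios scaling the count there was also 1, but Ciita, H2-DMa and H2-DMb1 all lost their calls and H2-Ab1 gained one, higher by 0.98. For TLR4-K810R against TLR4-WT without LPS, 1 became 2 with library weights, at the threshold of 0.05 and without TLR4-WT and TLR4-K730R LPS libraries 3 (H2-Aa), and 0 with the groups alone. For the same contrast with LPS, 1 became 3 with library weights and at 0.05 (H2-Aa and H2-Eb1), 2 without those libraries 3 (H2-Aa), and 0 with the groups alone, with the replicate block and without the 2 libraries with lung genes. For TLR4-K810R against TLR4-K730R with LPS, 1 became 2 at 0.05, and 0 with the groups alone, with the replicate block and without the 2 libraries with lung genes. In these 3 contrasts last-exon sums gave 0, because Cd74 has no last-exon event. With 1 library left out the counts ran from 0 to 3 in TLR4-K730R with LPS, 1 to 3 in TLR4-K810R with LPS, 1 to 2 and 0 to 2 for TLR4-K810R against TLR4-WT without and with LPS, and 0 to 1 for TLR4-K810R against TLR4-K730R with LPS. Where the cause is not given here it was not tested. In TLR4-K730R with LPS, median-of-ratios scaling took the calls of H2-DMa and H2-DMb1 and made Cd74 one, higher by 0.69 (reported value 0.28). Last-exon sums of H2-Ab1 hold the intronic end described above, not the whole gene.

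Replicate numbers did not pair the libraries: of 45 pairs with the same number, 0 had deviations correlated above 0.1, and the block is given for its effect alone. It took the Cd74 calls with LPS from adjusted p = 0.00443 to 0.0173 and from 0.00462 to 0.0164, and that of Ciita in TLR4-K810R from 0.00992 to 0.0117.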

Other observations

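After group means were subtracted, the genes whose remaining spread over the 18 libraries was most like that of the 7 tested members were Tor3a (Pearson r = 0.89), Batf2 (0.89), Ctsb (0.88), Man2b2 (0.85), Capn5 (0.85), Zfp467 (0.85), Sgpl1 (0.85), Slamf8 (0.84), Cd5l (0.83) and Tmppe (0.83). TLR4-WT and TLR4-K730R LPS libraries 3, which stood apart from their groups, are part of this spread. Capn5 and Cd5l were thus among the 10 most like genes with and without the group means. Within groups Cd74 had an r of 0.70 with H2-DMb1, 0.56 with Ciita and 0.40 with H2-Aa. Across all libraries its r was 0.22 with H2-DMb1, 0.13 with Ciita and 0.86 with H2-Aa. With LPS, Ciita was above 0 only in those libraries 3, at 0.023 FPKM in TLR4-WT and 0.610 in TLR4-K730R. TLR4-K730R LPS library 3 also had the highest Cd74 and H2-DMb1 of its group. These values of r are descriptions, from 3 libraries in each group.

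Ratios of members within a library do not depend on the scaling of the library. The ratio of H2-Aa to its partner H2-Ab1, in FPKM, was 1.04 ± 0.141 (SD, n = 3) in TLR4-WT control and 0.819 ± 0.279 with LPS, 0.842 ± 0.158 without and 0.734 ± 0.205 with LPS in TLR4-K730R. In TLR4-K810R it went from 0.940 ± 0.193 to 0.489 ± 0.0523. Permuting libraries within each genotype, the exact two-sided test of LPS against control gave p = 0.009 for this ratio, and 0.081 after adjustment over 9 tests of 3 ratios, so it did not pass. The ratio of Cd74 to H2-Aa was 2.65 ± 0.303 in TLR4-WT control and 2.22 ± 0.300 in TLR4-K810R control, and the exact test of TLR4-K810R against TLR4-WT over both treatments gave p = 0.225 (adjusted p = 0.334). Of the other tests, 3 had a p below 0.05 and an adjusted p of 0.09: Cd74 over H2-Ab1 and H2-Aa over H2-Ab1 in TLR4-K810R against TLR4-WT (exact p = 0.025 and 0.04) and Cd74 over H2-Aa with LPS against control (exact p = 0.035). These ratios were chosen after the levels were seen.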
